A study of Homo sapiens with 9 samples.

Results

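The genes described here are those of cholesterol and fatty acid synthesis and of the SREBP system that controls both, measured by RNA sequencing in A498 cells, an established human line of clear cell renal cell carcinoma (ccRCC). The members were given as a list of 33 gene symbols, and all 33 were found among the 27673 genes of the count table and passed the filter on low counts. By role they fell into a sterol branch of 19 genes, a fatty acid branch of 9 genes with its supply of acetyl-CoA, and 5 genes of SREBP control. The list does not hold every enzyme of the pathway. The cells carried a lentiviral short hairpin RNA (shRNA) that was a control hairpin (shControl), a hairpin against BMAL1 (shBMAL1) or a hairpin against ARNT (shARNT), and all had been selected and kept in puromycin. There were 3 biological replicates in each group and 9 libraries in all. Each group carries 1 hairpin, and no source used here says whether its replicates came from separate infections, so p-values measure the spread between these libraries.

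Cells make cholesterol from acetyl-CoA by way of mevalonate, the isoprenoids and squalene, and they make fatty acids from the same acetyl-CoA by way of malonyl-CoA. Both routes are switched on by the SREBP transcription factors, which are held in the endoplasmic reticulum by INSIG proteins while sterols are plentiful and are escorted to the Golgi by SCAP when sterols run low. SREBP2, the product of SREBF2, acts mainly on sterol genes, and SREBP1, the product of SREBF1, mainly on fatty acid genes. The clear cytoplasm that gives ccRCC its name comes from stored lipid and glycogen. ARNT pairs with the HIFα subunits to form the factors that answer low oxygen, and BMAL1 pairs with CLOCK to drive circadian transcription. The study reports that BMAL1 also forms an active pair with HIF2α in ccRCC cells.

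The stretches before the gene starts of 6 members are shown, because the factors that were depleted bind short DNA elements in such regions. These 6 were chosen by hand with the results known, and other members with large changes, such as SQLE, FASN and ELOVL6, are not printed. The sequences are RefSeq's, each the 250 bases before the annotated start, printed 5′ to 3′ along the gene. The capitals mark letters found by searching both strands for the E-box CACGTG, for the core letters ACGTG and GCGTG of a hypoxia response element, and for TCACNCCAC, a form of the sterol regulatory element that SREBPs bind.
SREBF2 (GRCh38.p14, chr22:41832855-41833104, plus strand): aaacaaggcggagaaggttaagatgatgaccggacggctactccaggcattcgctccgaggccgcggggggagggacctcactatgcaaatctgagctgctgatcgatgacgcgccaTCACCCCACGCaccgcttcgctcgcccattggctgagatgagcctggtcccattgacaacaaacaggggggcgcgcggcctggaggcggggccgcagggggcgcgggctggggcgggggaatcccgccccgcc
SCD (GRCh38.p14, chr10:100346983-100347232, plus strand): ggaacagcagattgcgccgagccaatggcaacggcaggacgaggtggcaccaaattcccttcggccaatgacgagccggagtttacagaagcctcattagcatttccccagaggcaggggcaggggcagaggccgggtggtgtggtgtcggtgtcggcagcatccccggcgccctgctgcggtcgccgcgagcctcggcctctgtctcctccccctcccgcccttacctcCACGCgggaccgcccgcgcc
MSMO1 (GRCh38.p14, chr4:165327419-165327668, plus strand): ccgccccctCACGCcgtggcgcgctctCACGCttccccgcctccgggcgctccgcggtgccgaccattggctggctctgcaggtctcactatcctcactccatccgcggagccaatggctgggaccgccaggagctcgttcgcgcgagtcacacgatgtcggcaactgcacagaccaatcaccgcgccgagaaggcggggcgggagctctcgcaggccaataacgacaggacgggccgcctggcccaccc
INSIG1 (GRCh38.p14, chr7:155297628-155297877, plus strand): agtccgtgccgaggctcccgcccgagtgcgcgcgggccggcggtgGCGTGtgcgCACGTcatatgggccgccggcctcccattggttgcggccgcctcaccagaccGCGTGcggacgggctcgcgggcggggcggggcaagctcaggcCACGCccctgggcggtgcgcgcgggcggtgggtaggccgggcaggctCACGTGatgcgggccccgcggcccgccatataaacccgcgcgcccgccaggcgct
SCAP (GRCh38.p14, chr3:47475942-47476191, minus strand): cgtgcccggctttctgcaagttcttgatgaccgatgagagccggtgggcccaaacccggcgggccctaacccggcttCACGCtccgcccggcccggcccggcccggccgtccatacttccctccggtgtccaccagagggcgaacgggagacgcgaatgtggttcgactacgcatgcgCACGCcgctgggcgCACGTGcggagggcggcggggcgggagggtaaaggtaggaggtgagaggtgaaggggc
SC5D (GRCh38.p14, chr11:121292521-121292770, plus strand): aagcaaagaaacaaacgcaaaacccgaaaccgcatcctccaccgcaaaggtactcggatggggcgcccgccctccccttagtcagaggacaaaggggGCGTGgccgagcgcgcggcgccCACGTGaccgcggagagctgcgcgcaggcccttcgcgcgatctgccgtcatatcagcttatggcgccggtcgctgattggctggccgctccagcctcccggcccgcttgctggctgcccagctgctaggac

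A sequence before the start was found for 29 members, in 42 stretches because some genes have several starts. The E-box letters were present in 4 of the 42 stretches, belonging to INSIG1, SCAP and SC5D, and in 6.34% of all 35116 stretches in the table. Stretches of the same gene can overlap, and those of SC5D share an E-box that is counted in each. The counts are therefore of stretches and not of separate sites. Since CACGTG reads the same on both strands and contains ACGTG, each E-box is also a match to ACGTG. The letters ACGTG were found in 10 of the 42 stretches, from 8 members (18.5% of all stretches), and GCGTG in 32 of the 42, from 24 members (32.2% of all stretches). SREBF2 was the 1 member with TCACNCCAC, 125 to 133 bases before its start and overlapping a GCGTG match, and these letters were found in 0.883% of all stretches. The letters CCAAT, which are not in capitals here, were found in 24 of the 42 stretches, from 20 members, and in 32% of all stretches. These shares are descriptions, and a match is not evidence of binding. The printed stretches cover every member with the E-box letters or TCACNCCAC, so they do not stand for the other members.

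Library totals ran from 35269851 to 36099075 counts, and members held between 77 and 88297 counts in a library. Levels are given as CPM, a count relative to the library size after scaling by trimmed means of M values (TMM). The TMM factors were 0.932 to 0.971 in shControl and shBMAL1 and 1.1 to 1.11 in shARNT. ARNT had a log2 fold change of -2.41 in shARNT, and BMAL1, listed as ARNTL, one of -1.70 in shBMAL1 (adjusted p = 1.35e-17 and 1.94e-11). ARNT was also lower in shBMAL1 (50.5 CPM in shControl and 32.3 CPM in shBMAL1, -0.65, adjusted p = 1.54e-08), and ARNTL was higher in shARNT (0.55, adjusted p = 8.27e-06), so in shBMAL1 loss of BMAL1 and the lower ARNT level cannot be told apart. All 9 markers chosen for a renal line were above 1 CPM in every group, and their summed level was 2300 to 2455 CPM in shARNT, below the 9206 to 9285 CPM of shControl and the 7531 to 7896 CPM of shBMAL1. VIM (mean of 5974 CPM in shControl and 812 CPM in shARNT) and CA12 (1186 and 132 CPM) carried most of that gap, whereas PAX8 was at 36 and 100 CPM and KRT18 at 566 and 563 CPM. The 7 immune, endothelial and fibroblast markers summed to at most 1.38 CPM in a library, with CD3E and LUM at 0. The part of these marker levels in the results was not tested.

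How ARNT depletion altered these genes was asked first. Most of them fell in shARNT: 23 of 33 members were called lower, 6 were called higher and 4 were not called. A gene was called when its adjusted p was under 0.1 by edgeR's quasi-likelihood test, adjusted by the Benjamini-Hochberg method over all 15551 genes tested, which is the test behind every adjusted p given here. The falls were led by SCD (17.6-fold lower), SREBF2 (4.12-fold), MSMO1 (3.98-fold), SQLE (3.61-fold) and FADS1 (3.61-fold), and the rises by SCAP (2.12-fold) and ELOVL6 (2.1-fold). Of all genes tested, 81.8% were called, 41.3% lower and 40.5% higher, so the share of members called (87.9%) was near the background and the direction was less even than in the whole table. With a fold of at least 1.5 also required, 20 members were lower and 2 higher, against 53.4% of all genes called at that size in either direction. The median log2 fold change was -0.76 over the members and -0.01 over all genes tested. Scaling by library size alone, which raised the median of all genes to 0.23, gave 21 members lower and 10 higher. In bulk RNA, fewer cells that express a gene and less of its RNA per cell cannot be told apart.

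Fewer of these genes were called in shBMAL1 than in shARNT, as was so over all genes tested, and the calls were less one-sided. In shBMAL1, 15 members were called lower, 8 were called higher and 10 were not called. SCD again had the largest fall (2.43-fold), followed by FASN (1.93-fold) and CYP51A1 (1.71-fold), while ELOVL6 (2.94-fold), INSIG1 (2.15-fold) and SQLE (1.67-fold) rose. Of all genes tested, 63.3% were called, 31.5% lower and 31.9% higher, so the share of members called (69.7%) was near the background. A fold of at least 1.5 was reached by 7 members that fell and 3 that rose, against 23.5% of all genes in either direction. The median log2 fold change was -0.07 over the members.

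Whether the depletions differed was tested in the direct contrast of shARNT with shBMAL1, in the same fit over all 9 libraries. In this contrast 22 members were lower in shARNT, 6 were higher and 5 were not called. SCD (7.26-fold), SQLE (6.02-fold), INSIG1 (3.85-fold) and SREBF2 (3.46-fold) were lower in shARNT, and FASN (2.24-fold), SC5D (2.16-fold), SCAP (2-fold) and FDPS (1.88-fold) were higher. Of all genes tested, 81.2% were called, 41.1% lower and 40.1% higher. A fold of at least 1.5 was reached by 18 lower and 4 higher members, against 52.6% of all genes. The median was -0.72 over the members and -0.01 over all genes tested.

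**Figure D1:**
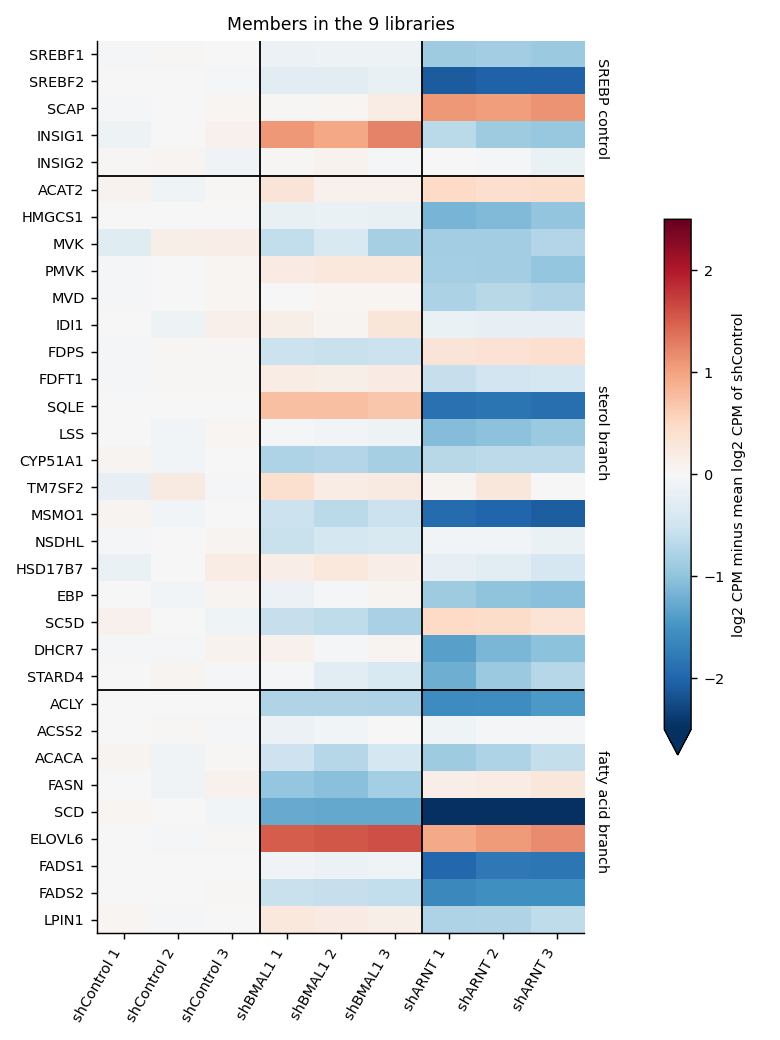
Each row is a member and each column a library, and the colour is its log2 CPM minus the mean log2 CPM of the shControl libraries (blue lower, red higher). The 3 libraries of a group look alike, SREBF2, SQLE, MSMO1 and SCD are dark blue in shARNT, with SCD beyond the scale, and INSIG1, SQLE and ELOVL6 are red in shBMAL1.

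The SREBP control genes were examined member by member. SREBF2 (chromosome 22, 42229109 to 42303310, GRCh37, plus strand) had 373, 370 and 363 CPM in the shControl libraries, 301, 302 and 326 CPM in shBMAL1, and 87.5, 90.6 and 90.5 CPM in shARNT. The groups did not overlap, with every shARNT library far below every other library. Lack of overlap is common in these data. Between shARNT and shControl it held for 79.8% of all genes tested and for 31 of 33 members. Between shBMAL1 and shControl it held for 62.2% and 22 members, and in the direct contrast for 79.6% and 28 members. Its change on the log2 scale was -2.04 in shARNT (SE 0.0408, adjusted p = 8.81e-20) against -0.25 in shBMAL1 (SE 0.0387, adjusted p = 1.33e-05), and the direct contrast gave -1.79 (adjusted p = 5.77e-19). Exons of SREBF2-AS1 on the opposite strand cover 4.9% of its transcript.

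SREBF1, on chromosome 17, was lowered less. Its levels were 279, 289 and 284 CPM in shControl, 257, 260 and 260 CPM in shBMAL1, and 153, 156 and 149 CPM in shARNT. Its log2 fold change was -0.90 in shARNT (SE 0.0365, adjusted p = 7.3e-15). The small difference in shBMAL1 (-0.13, adjusted p = 0.00387) was not called after removal of a GC trend from each library (-0.01, adjusted p = 0.808).

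SCAP, the escort protein that carries SREBPs to the Golgi, moved the other way. It stood at 56.7, 58.4 and 60.6 CPM in shControl and 59.4, 60.7 and 66.5 CPM in shBMAL1, groups that overlapped, and at 124, 121 and 128 CPM in shARNT. In shARNT the log2 difference was 1.09 (SE 0.0505, adjusted p = 6.3e-14), while in shBMAL1 it was 0.09 (adjusted p = 0.158). The latter was called under library size alone (0.13, adjusted p = 0.0276) and after GC correction (0.19, adjusted p = 0.0017).

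The retention factors INSIG1 and INSIG2 behaved unlike each other. INSIG1, itself an SREBP target, had 17.9, 19.7 and 21.2 CPM in shControl, 41.6, 38.4 and 46.5 CPM in shBMAL1, and 12.2, 10.5 and 10.2 CPM in shARNT. It was thus highest in shBMAL1 and lowest in shARNT without overlap, with log2 fold changes of 1.11 (SE 0.0837, adjusted p = 7.21e-10) and -0.84 (SE 0.0909, adjusted p = 4.95e-08). INSIG2 had 29.6, 30.2 and 27.1 CPM in shControl, 29.4, 30.6 and 28.5 CPM in shBMAL1, and 28.7, 27.8 and 25.9 CPM in shARNT. These overlapped and were called in no contrast (log2 fold changes of -0.08 in shARNT, SE 0.0642, and 0.02 in shBMAL1, SE 0.0645). For shARNT the INSIG2 value changed sign under library size alone (0.16, adjusted p = 0.0312) and was called lower after GC correction (-0.16, adjusted p = 0.0246).

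**Figure D2:**
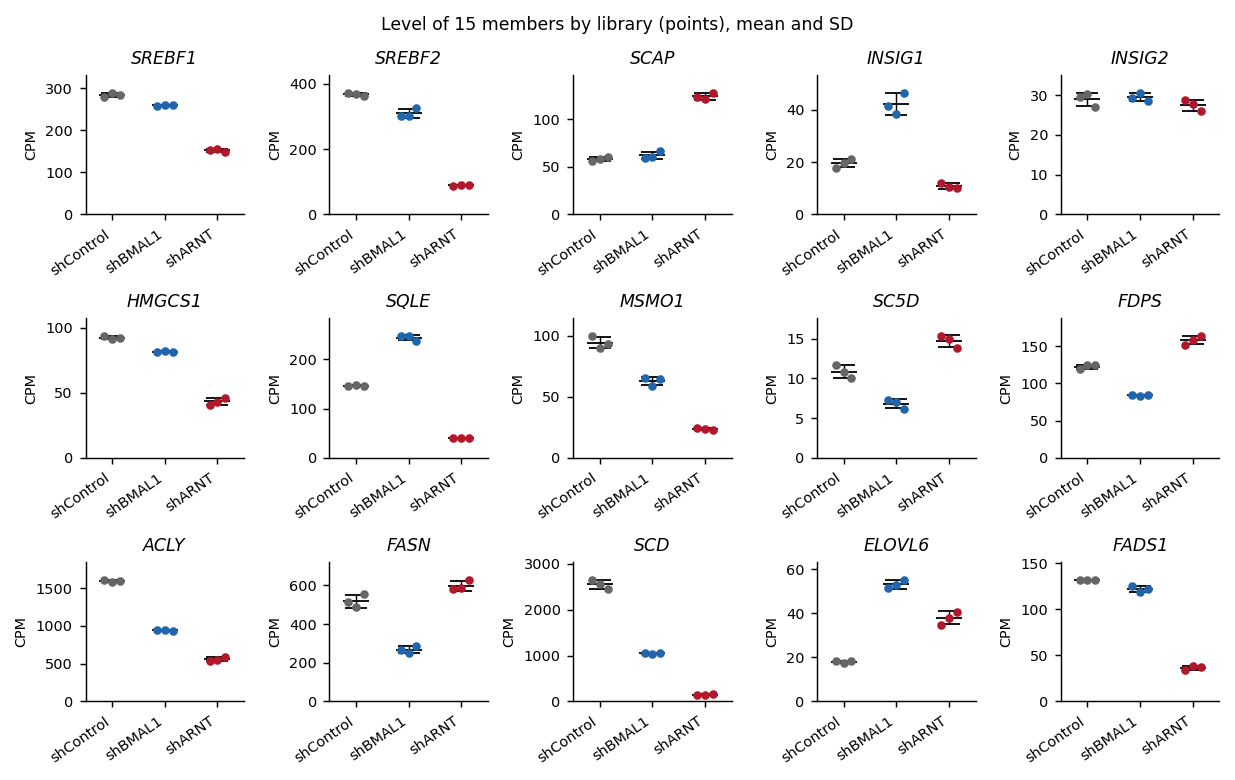
Level in CPM (linear axis from 0) of 15 members, with 1 point per library and the mean and SD of 3 libraries in black. SREBF2, SCD, FADS1 and MSMO1 step down from shControl through shBMAL1 to shARNT, SCAP is high in shARNT, and INSIG1 and SQLE are high in shBMAL1 and low in shARNT.

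In the mevalonate arm, which runs from acetyl-CoA to farnesyl diphosphate, 5 of 7 genes were lower and 2 higher in shARNT, and 3 were lower and 3 higher in shBMAL1. Counts by arm and branch stand beside the shares of all genes called, 81.8% in shARNT and 63.3% in shBMAL1. HMGCS1, which makes HMG-CoA, had 93.4, 91.2 and 91.9 CPM in shControl, 81.4, 82.1 and 81.4 CPM in shBMAL1, and 41.0, 43.0 and 46.3 CPM in shARNT. Its shARNT libraries were clearly apart from the rest, at -1.09 on the log2 scale (SE 0.0492, adjusted p = 4.17e-14), while the fall in shBMAL1 was small (-0.18, adjusted p = 0.00365). The kinases MVK and PMVK and the decarboxylase MVD act next in turn, and in shARNT they had log2 fold changes of -0.83, -0.89 and -0.76. In shBMAL1 only MVK of these was lower (-0.61, adjusted p = 0.000416), PMVK was slightly higher (0.25, adjusted p = 0.000311) and MVD was not called (0.03, adjusted p = 0.587). With the GC trend removed, MVD was called higher in shBMAL1 (0.18, adjusted p = 0.0044).

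The members at both ends of this arm rose in shARNT. FDPS, farnesyl diphosphate synthase, went from 122 ± 3.12 CPM (SD, n = 3) in shControl to 158 ± 5.71 CPM in shARNT and 83.7 ± 0.944 CPM in shBMAL1. Its log2 fold changes were 0.36 (adjusted p = 1.01e-07) and -0.55 (adjusted p = 1.04e-09). ACAT2, the cytosolic thiolase at the entry of the arm, had 19.7, 17.2 and 18.8 CPM in shControl, 23.3, 20.1 and 20.1 CPM in shBMAL1, and 26.2, 24.8 and 25.3 CPM in shARNT (log2 fold change 0.45, SE 0.0749, adjusted p = 1.62e-05). The exons of TCP1, on the opposite strand, cover 29.9% of the ACAT2 transcript, and TCP1 had a log2 fold change of 0.91 in shARNT. Opposite-strand genes also cover 39.7% of HMGCS1 and 15% of FDPS, and an unnamed gene on the same strand covers 57.1% of EBP. The library kit kept the strand, but whether the counting used it is not stated. ACAT2 in shBMAL1 (0.19, adjusted p = 0.0417) was no longer called without shControl replicate 2 (0.13, adjusted p = 0.186) or shBMAL1 replicate 1 (0.12, adjusted p = 0.233), or with the GC trend removed (0.14, adjusted p = 0.104). IDI1, the isomerase of the isoprenoid units, was slightly lower in shARNT (-0.20, adjusted p = 0.0298) and slightly higher in shBMAL1 (0.17, adjusted p = 0.0671). Its call in shARNT was lost without shControl replicate 3 (-0.14, adjusted p = 0.15), and that in shBMAL1 without shControl replicate 1, shControl replicate 2 or shBMAL1 replicate 3 (0.18, 0.11 and 0.11) and with the GC trend removed (0.09, adjusted p = 0.391). Under library size alone the IDI1 value in shARNT was 0.04.

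From squalene to cholesterol, 8 of 11 genes were lower in shARNT, 1 was higher and 2 were not called, and in shBMAL1 4 were lower, 2 were higher and 5 were not called. SQLE, squalene epoxidase, a rate-limiting enzyme of this arm, had 146, 148 and 146 CPM in shControl, 247, 247 and 238 CPM in shBMAL1, and 40.4, 41.3 and 39.8 CPM in shARNT. It was thus highest in every shBMAL1 library and lowest in every shARNT library. Its log2 fold change was 0.74 in shBMAL1 (SE 0.0383, adjusted p = 2.41e-12) and -1.85 in shARNT (SE 0.0411, adjusted p = 4.15e-19), and the direct contrast gave -2.59 (SE 0.0414, adjusted p = 2.64e-21).

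MSMO1, which removes methyl groups from the sterol ring, fell in both depletions. It had 99.4, 89.9 and 93.5 CPM in shControl, 65.0, 59.2 and 64.8 CPM in shBMAL1, and 24.7, 23.7 and 22.7 CPM in shARNT, with no overlap between groups. The log2 fold changes were -0.58 (SE 0.0539, adjusted p = 1.48e-08) in shBMAL1 and -1.99 (SE 0.0575, adjusted p = 2.81e-17) in shARNT.

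CYP51A1, the lanosterol demethylase, fell in both depletions. It had 36.9, 33.7 and 35 CPM in shControl, 20.7, 21.2 and 19.8 CPM in shBMAL1, and 21.8, 22.4 and 22.5 CPM in shARNT. The log2 fold changes were -0.78 (SE 0.0623, adjusted p = 1.76e-09) and -0.67 (SE 0.0613, adjusted p = 4.1e-09), and the difference between the depletions was 0.11 (SE 0.0633, adjusted p = 0.117), although their libraries did not overlap. This difference was called under library size alone (0.30, adjusted p = 0.000288) and with the GC trend removed (0.14, adjusted p = 0.04). An unnamed gene on the same strand covers 89.6% of its transcript, so how reads were divided between them is uncertain.

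SC5D, which puts in a late double bond of the sterol ring, moved in opposite directions. It had 11.7, 10.8 and 10.1 CPM in shControl, 7.25, 7.02 and 6.17 CPM in shBMAL1, and 15.3, 15 and 13.8 CPM in shARNT. The log2 fold changes were -0.67 (SE 0.1, adjusted p = 8.91e-06) in shBMAL1 and 0.44 (SE 0.0928, adjusted p = 0.000249) in shARNT, and 1.11 (SE 0.0969, adjusted p = 1.81e-09) between them.

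Among the other genes of this arm, LSS (lanosterol synthase), EBP (sterol isomerase) and DHCR7, the last reductase of a route to cholesterol, had log2 fold changes of -1.01, -0.98 and -1.17 in shARNT and were not called in shBMAL1 (-0.07, -0.03 and 0.05). FDFT1, squalene synthase, was lower in shARNT (-0.50, adjusted p = 3.38e-09) and slightly higher in shBMAL1 (0.17, adjusted p = 0.00245). NSDHL, which works with MSMO1, was lower in shBMAL1 (-0.46, adjusted p = 6.19e-07). In shARNT its value was -0.10 (adjusted p = 0.111), and it turned to 0.14 under library size alone. HSD17B7 was at -0.30 in shARNT (adjusted p = 0.0149), a call that was lost without shControl replicate 3 (-0.20, adjusted p = 0.109) and under library size alone (-0.06, adjusted p = 0.597). TM7SF2, a sterol reductase at 2.69 ± 0.411 CPM (SD, n = 3) in shControl, was not called in any contrast of the main fit. It was called higher in shBMAL1 with the GC trend removed (0.37, adjusted p = 0.0624). Under library size alone it was called higher in shARNT (0.35, adjusted p = 0.0629). STARD4, a carrier of cholesterol between membranes, was lower in shARNT (-0.94, adjusted p = 2.16e-06) and at -0.23 in shBMAL1 (adjusted p = 0.144). The shBMAL1 value of STARD4 was called lower with the GC trend removed (-0.36, adjusted p = 0.0237).

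In the fatty acid branch, 6 of 9 genes were lower, 2 higher and 1 not called in each depletion against shControl, but FASN and LPIN1 changed sides. SCD, the stearoyl-CoA desaturase that makes monounsaturated fatty acids, was the most abundant member per kilobase of transcript in shControl. It had 2652, 2560 and 2449 CPM in shControl, 1060, 1045 and 1047 CPM in shBMAL1, and 135, 146 and 154 CPM in shARNT. Each group lay far from the next, with log2 fold changes of -1.28 in shBMAL1 (SE 0.0419, adjusted p = 2.37e-15) and -4.14 in shARNT (SE 0.0473, adjusted p = 2.13e-23). Between the depletions the difference was -2.86 (SE 0.0449, adjusted p = 1.95e-21).

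ACLY, ATP citrate lyase, supplies the acetyl-CoA for both branches. It had 1610, 1578 and 1598 CPM in shControl, 942, 947 and 931 CPM in shBMAL1, and 538, 547 and 587 CPM in shARNT. These levels did not overlap, with log2 fold changes of -0.76 in shBMAL1 (SE 0.0354, adjusted p = 4.19e-13) and -1.52 in shARNT (SE 0.036, adjusted p = 1.15e-18). ACSS2, which makes acetyl-CoA from acetate instead, had log2 fold changes of -0.06 in both (adjusted p = 0.272 in shARNT and 0.304 in shBMAL1). Under library size alone the ACSS2 value in shARNT was 0.18.

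ACACA, acetyl-CoA carboxylase, and FASN, fatty acid synthase, build the chain. ACACA went from 177 ± 10.7 CPM (SD, n = 3) under the control hairpin to 121 ± 11.4 CPM with the BMAL1 hairpin and 106 ± 11.2 CPM with the ARNT hairpin (log2 fold changes of -0.56 and -0.75). FASN had 512, 486 and 553 CPM in shControl, 265, 251 and 286 CPM in shBMAL1, and 581, 586 and 628 CPM in shARNT. It was lowest in all shBMAL1 libraries and highest in all shARNT libraries, with log2 fold changes of -0.95 (SE 0.0505, adjusted p = 3.28e-12) and 0.21 (SE 0.0496, adjusted p = 0.000685). The direct contrast gave 1.16 for FASN (SE 0.0506, adjusted p = 2.21e-14). For ACACA it gave -0.19 (adjusted p = 0.0179), which was not called without shBMAL1 replicate 3 (-0.14, adjusted p = 0.103) or shARNT replicate 1 (-0.12, adjusted p = 0.126), under library size alone (-0.00, adjusted p = 0.997) or with the GC trend removed (-0.11, adjusted p = 0.131).

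ELOVL6, which lengthens the products of FASN, was the member that rose most in shBMAL1. It had 18.2, 17.6 and 18.5 CPM in shControl, 51.4, 52.9 and 55.2 CPM in shBMAL1, and 34.9, 38.0 and 40.8 CPM in shARNT. All depleted libraries were above all shControl libraries, with log2 fold changes of 1.56 (SE 0.0649, adjusted p = 8.56e-14) and 1.07 (SE 0.0653, adjusted p = 5.63e-12). The desaturases of polyunsaturated fatty acids, FADS1 and FADS2, fell in shARNT (-1.85 and -1.56). In shBMAL1 FADS2 was at -0.59 (adjusted p = 6.64e-11) and FADS1 at -0.11 (adjusted p = 0.0463), the latter not called without shBMAL1 replicate 2 (-0.10, adjusted p = 0.145) or under library size alone (-0.06, adjusted p = 0.244). LPIN1, a phosphatidate phosphatase of triglyceride synthesis, was lower in shARNT (-0.73, adjusted p = 5.25e-10) and higher in shBMAL1 (0.21, adjusted p = 0.00412).

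**Figure D3:**
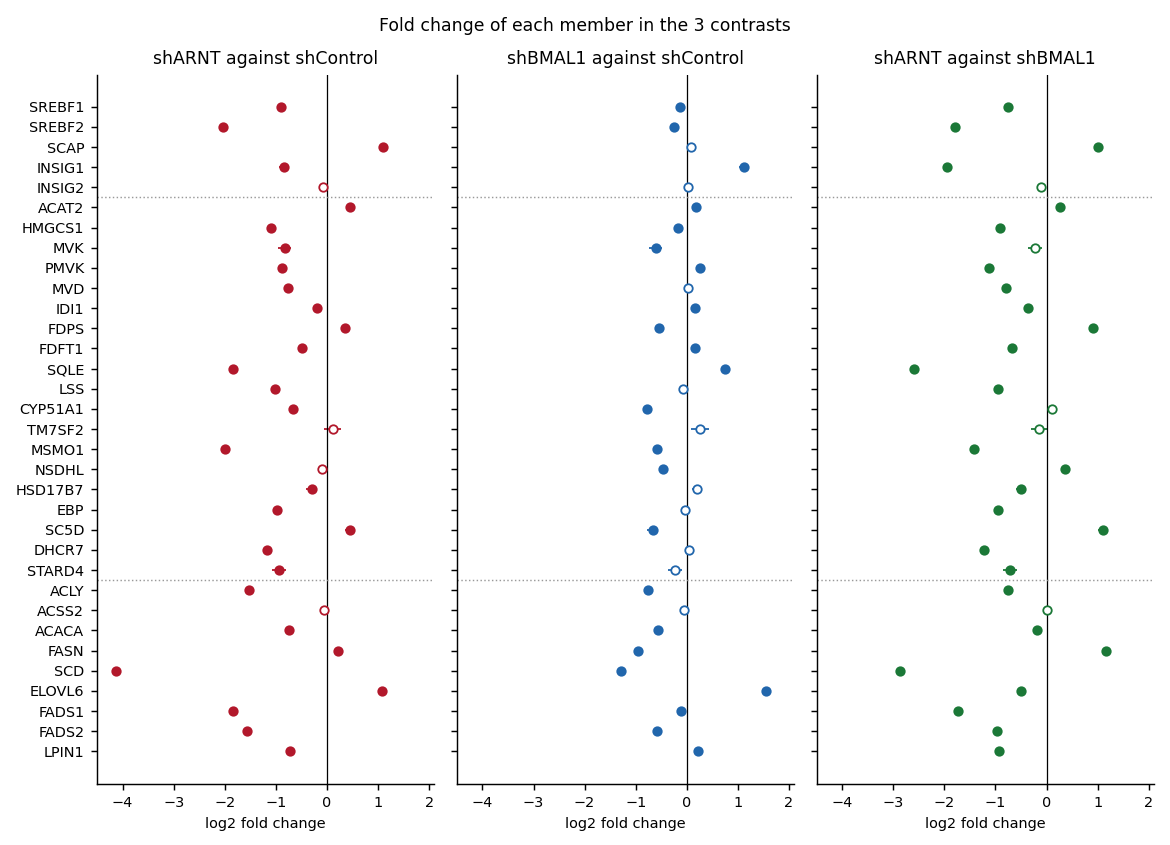
Log2 fold change of each member (points, bars 1 SE, linear axis) in the 3 contrasts, filled where the adjusted p was under 0.1 and open where it was not, with dotted lines between SREBP control, sterol branch and fatty acid branch. SCD lies furthest left in each panel, with SQLE close to it in the direct contrast (-2.86 and -2.59), and SQLE and INSIG1 lie left of 0 for shARNT and right of 0 for shBMAL1.

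The branches were then compared with each other. In shARNT their medians were alike, with log2 fold changes of -0.76 over the 19 sterol genes and -0.75 over the 9 fatty acid genes. In shBMAL1 the medians were -0.03 and -0.56, with 7 lower and 5 higher calls in the sterol branch and 6 lower and 2 higher in the fatty acid branch. Over all genes tested, both medians lay within 0.01 of 0. In the direct contrast the medians were -0.67 and -0.76. No test was made between the branches, since genes of a branch are not replicates.

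The summed level of the branches showed the weight of single genes. The fatty acid genes summed to 5446 ± 100 CPM (SD, n = 3) in shControl, 2895 ± 25.8 CPM in shBMAL1 and 1684 ± 81.3 CPM in shARNT. SCD made up 46.9 ± 1.25% of that sum in shControl, 36.3 ± 0.244% in shBMAL1 and 8.59 ± 0.222% in shARNT, while FASN made up 9.5%, 9.24% and 35.5%. Without SCD the sums were 2892, 1844 and 1540 CPM. The sterol genes summed to 995 ± 16.2 CPM in shControl, 1002 ± 4.08 CPM in shBMAL1 and 631 ± 10.5 CPM in shARNT. Without SQLE the shBMAL1 sum was 759 ± 7.08 CPM against 849 ± 16.8 CPM in shControl.

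**Figure D4:**
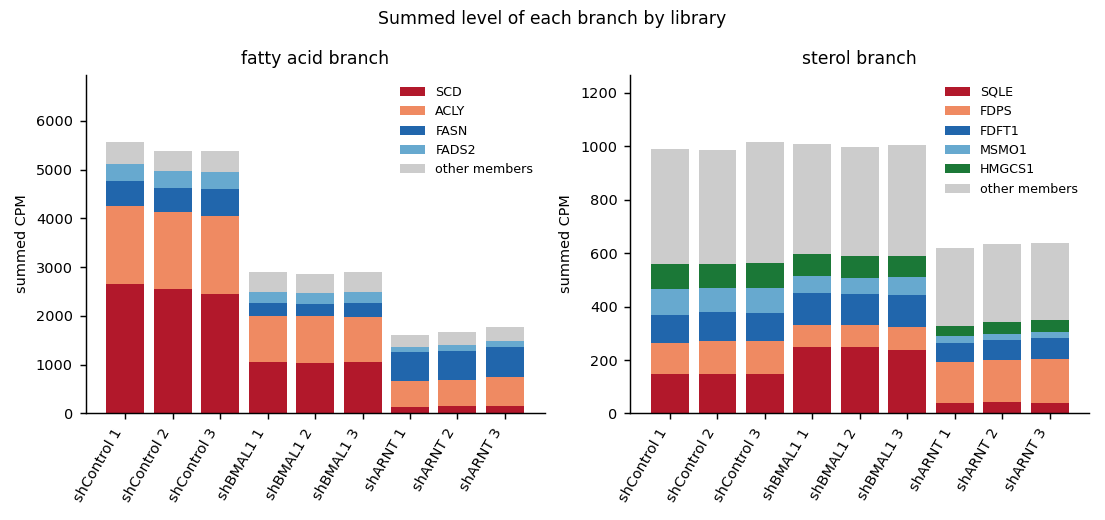
Summed CPM (linear axis from 0) of the fatty acid branch (left) and sterol branch (right) in each of the 9 libraries, with the most abundant members in colour and the others in grey. The fatty acid sum is 5388 to 5562 CPM in shControl and 1614 to 1773 CPM in shARNT, and the sterol sum is 985 to 1014 CPM in shControl and 998 to 1006 CPM in shBMAL1.

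Per kilobase of transcript, which allows levels of different genes to be compared, SCD (487 CPM per kilobase), ACLY (372) and FADS2 (112) led the members in shControl. In shARNT the order was ACLY (130), FDPS (111) and FASN (70.7), with SCD at 27.6 CPM per kilobase. SREBF2 stood at 70.4 CPM per kilobase and SREBF1 at 57.9 in shControl, and at 17.1 and 31.1 in shARNT, so their order was exchanged.

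Other genes of these pathways were counted from 4 lists. The counts stand beside 81.8% of all genes called in shARNT and 63.3% in shBMAL1, and no list was tested as a set. Of 13 isoprenoid genes outside cholesterol synthesis, 6 were higher and 4 lower in shARNT, and 4 higher and 5 lower in shBMAL1. RABGGTA, a subunit of an enzyme that prenylates Rab proteins, rose in shARNT (1.40, adjusted p = 7.42e-14). In shBMAL1 the largest changes of this list were those of PDSS1 (-0.71, adjusted p = 0.000164) and FNTB (-0.68, adjusted p = 1.21e-05), subunits of prenyl transferring enzymes. In shARNT PDSS1 was higher (0.33, adjusted p = 0.0233) and FNTB was not called (0.12, adjusted p = 0.25).

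Of 14 genes of SREBP processing and sterol-regulated degradation, 6 were higher and 8 lower in shARNT, and 4 higher and 3 lower in shBMAL1. In shARNT ERG28, listed as C14orf1 and a scaffold of sterol enzymes, was at -2.15 (adjusted p = 1.82e-11) and PAQR3, a Golgi protein that binds SCAP, at 1.16 (adjusted p = 5.35e-09). ERG28 was not called in shBMAL1 (0.14, adjusted p = 0.345), and PAQR3 was higher there too (0.31, adjusted p = 0.0264). In shBMAL1 MBTPS1, the first protease that cuts SREBPs, was at -0.46 (adjusted p = 1.5e-08) and ERLIN2 at 0.43 (adjusted p = 1.47e-07). Their values in shARNT were -0.79 (adjusted p = 9.14e-13) and 0.21 (adjusted p = 0.000391).

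Of 14 tested genes of sterol export, storage and LXR targets, 5 were higher and 7 lower in shARNT, and 2 higher and 6 lower in shBMAL1. SMPDL3A, an LXR target, fell from 289 to 20.5 CPM in shARNT (-3.82, adjusted p = 4.75e-22), and NR1H3, which encodes the sterol sensor LXRα, changed by -2.28 (adjusted p = 2.69e-16). SMPDL3A was not called in shBMAL1 (0.02, adjusted p = 0.709), and NR1H3 was lower there too (-0.42, adjusted p = 2.51e-05). In shBMAL1 ABCG1, a cholesterol exporter with 8 to 46 counts in the shControl and shBMAL1 libraries, was at -1.19 (adjusted p = 0.00338) and SOAT1, which esterifies cholesterol for storage, at 0.61 (adjusted p = 1.92e-10). In shARNT ABCG1 was higher instead (1.81, adjusted p = 1.1e-06), and SOAT1 was higher too (0.71, adjusted p = 3.7e-12).

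Of 28 tested genes of fatty acid synthesis, elongation and activation outside the members, 10 were higher and 15 lower in shARNT, and 8 higher and 14 lower in shBMAL1. Their median log2 fold changes were -0.32 in shARNT and -0.11 in shBMAL1, smaller falls than the -0.75 and -0.56 of the fatty acid branch. Members and lists were chosen with earlier results of these data known, so no conclusion is drawn from this difference. MLXIPL, which encodes the carbohydrate-sensing lipogenic factor ChREBP, stood at 57.9 ± 5.86 CPM in shControl, 9.65 ± 1.3 CPM in shBMAL1 and 1.21 ± 0.0988 CPM in shARNT (n = 3 each). Its log2 fold changes were -2.59 (SE 0.0919, adjusted p = 7.45e-15) and -5.58 (SE 0.121, adjusted p = 3.04e-19). LPIN3, a relative of LPIN1, changed by -1.73 in shARNT (adjusted p = 4.34e-14), and MLXIP, a relative of MLXIPL, by -1.03 in shBMAL1 (adjusted p = 2.99e-13). In the other depletion LPIN3 was at -0.81 (adjusted p = 1.81e-08) and MLXIP at -1.29 (adjusted p = 1.16e-15). The comparisons of the depletions with shControl share the shControl libraries, so their values are set side by side only.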

How the data were processed

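RNA of A498 cells was sequenced from stranded mRNA libraries. The authors deposited 1 table of expected counts (estimated counts per gene, a few of them fractional), in which 0.05 stands for no reads. The study's methods name SeqMan NGen 17 and ArrayStar 17 with GRCh37, while the submitters' processing notes name STAR, DESeq2 and hg38. Annotation, use of strand and treatment of multi-mapping reads are not given in the sources used here.

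Values of 0.05 were set to 0, rows sharing a name were summed (43 names, 27716 rows to 27673 genes, with 28 rows named by dates kept apart) and counts were rounded. Genes passing filterByExpr (15551) were fitted over all 9 libraries with edgeR 4.0.16 in R 4.3.3 (TMM, quasi-likelihood F test), and an adjusted p under 0.1 was the call. The script was tested on simulated data in which few genes changed, evenly up and down. That test cannot show how scaling and calls behave where most genes change, as in shARNT. Alternatives were library size alone, DESeq2 1.42.0, no filter, the 6 libraries of a contrast, a replicate block, removal of a GC trend, stricter calls and leaving out each library. Gene positions, lengths and GC came from GENCODE 44 lifted to GRCh37, and sequences before gene starts from RefSeq on GRCh38.p14..

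The members and lists were chosen with earlier results of these data known. Values in every library were given for SREBP control genes, HMGCS1, ACLY and, in each contrast, the 3 largest rises and falls among called members whose log2 CPM averaged 2 or more. The 2 called genes with the largest change were named from each further list in each depletion. One gene that this rule picks is not reported here.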

Additional observations from a re-analysis of the deposited data

Results flagged for a closer look

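Members that were called in opposite directions in the depletions, and that also differed in the direct contrast of shARNT with shBMAL1 (edgeR, adjusted p under 0.1), were picked out for a closer look. Of the SREBP control genes this was INSIG1, with a direct log2 difference of -1.94. In the sterol branch these were SQLE (-2.59), PMVK (-1.13), FDFT1 (-0.67) and IDI1 (-0.37), lower in shARNT, and SC5D (1.11) and FDPS (0.91), higher in shARNT. In the fatty acid branch these were FASN (1.16), higher in shARNT, and LPIN1 (-0.93), lower in shARNT. The IDI1 calls against shControl rest on single libraries.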

How the results depend on the processing

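Scaling by library size alone moved most values, because it shifted the median of all genes to 0.23 for shARNT against shControl and to 0.18 for shARNT against shBMAL1. Under it the shARNT medians against shControl were -0.52 (sterol) and -0.51 (fatty acid), those against shBMAL1 were -0.48 and -0.57, and 10 members were called higher in shARNT. Values for shARNT against shControl that changed sign were those of ACSS2 (0.18), IDI1 (0.04), INSIG2 (0.16) and NSDHL (0.14). With the GC trend removed, with or without the replicate block, the fatty acid median of the direct contrast was -0.68. With a fold of at least 1.5, 2 members were higher in shARNT, and 3 were higher and 7 lower in shBMAL1. All 99 member results kept direction and call with DESeq2, with no filter and with the replicate block.

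Same-numbered libraries did not deviate together (correlations of -0.218 to 0.193, with 1 of 9 pairs over 0.1), and not every library correlated best with its own number. With the replicate block, members called higher and lower were 6 and 23, 8 and 15, and 6 and 22 in the 3 contrasts, the counts without it.

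Leaving out each library gave sterol medians of -0.78 to -0.73 in shARNT and -0.07 to 0.02 in shBMAL1, and fatty acid medians of -0.83 to -0.70 and -0.60 to -0.48. Small changes, as in IDI1, ACAT2, FADS1 and HSD17B7, depended on single libraries, and these calls were also lost under library size alone (FADS1 in shBMAL1, HSD17B7 in shARNT) or with the GC trend removed (ACAT2 and IDI1 in shBMAL1). Values that became calls were those of NSDHL in shARNT (without shControl replicate 1, shBMAL1 replicate 1 or shBMAL1 replicate 3), MVK in the direct contrast (without shControl replicate 1 or shBMAL1 replicate 3), and in shBMAL1 SCAP and STARD4 (without shBMAL1 replicate 1), HSD17B7 (without shControl replicate 3) and TM7SF2 (without shControl replicate 2). With 3 replicates of 1 hairpin per target, effects of a hairpin and of the loss of its target cannot be told apart.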

Other observations

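Ratios of pairs of members within a library do not depend on scaling between libraries. The pairs were chosen after the values were seen, and no test was made. Per kilobase of transcript, SREBF2 stood to SREBF1 at 1.20 to 1.25 in the shControl libraries, and its range was 1.08 to 1.17 for shBMAL1 but 0.534 to 0.57 for shARNT. The ratio of SCAP, the SREBP escort, to INSIG1, its retention partner, ranged over 6.92 to 8.63 in shARNT, far above the 1.96 to 2.17 of shControl and the 0.976 to 1.08 of shBMAL1. SCD to FASN lay between 0.374 and 0.402 in shARNT, against 7.15 to 8.49 for shControl and 5.91 to 6.71 for shBMAL1. SQLE to FDFT1, neighbours on the way to cholesterol, was highest in shBMAL1 at 1.34 to 1.45, with 0.937 to 0.977 under shControl and 0.351 to 0.392 under shARNT. In all 4 ratios the shARNT libraries lay apart from the others, and the shBMAL1 libraries did not overlap those of shControl either. How often ratios of other gene pairs separate in this way was not computed.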
